A study of Homo sapiens with 9 samples.

Results

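TRAIL (gene TNFSF10), its 4 membrane receptors (TNFRSF10A, TNFRSF10B, TNFRSF10C and TNFRSF10D) and 5 genes of the death signalling they share with FAS (FAS, FADD, CASP8, CASP10 and CFLAR) were followed in a human B-cell line treated with sulforaphane. The 10 genes were chosen by name, and each was represented by a transcript cluster (the set of probes summarised as one gene) annotated with that symbol alone. Where a symbol had several clusters, the one with the highest mean over the arrays was taken. All 10 had such a cluster, out of 14232 genes named in this way and 22011 clusters in all.

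The cells were GM12878, an Epstein-Barr virus-transformed lymphoblastoid line, which is a single line and models B cells only in that immortalised state. Cultures started from 900000 cells per ml, with 15% serum in the medium. The study had 3 groups of 3 cultures each: untreated cells at 0 h, cells given 10 µM D,L-sulforaphane for 8 h, and cells given the same dose for 24 h. Each culture was measured on 1 Affymetrix Human Exon 1.0 ST array, and values are log2 signals. Although the labels mention a 0.1% DMSO vehicle, no vehicle array was used here, so sulforaphane, vehicle and hours in culture cannot be told apart. Nothing in the labels says that the replicates were grown on separate days, so the p-values measure the spread between these cultures.

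TRAIL is a ligand of the tumour necrosis factor family that can trigger apoptosis in target cells. TNFRSF10A and TNFRSF10B carry a cytoplasmic death domain and pass the signal on. TNFRSF10C, which is anchored by lipid, and TNFRSF10D, whose death domain is truncated, bind the ligand without doing so and are called decoy receptors. A bound death receptor recruits the adaptor FADD, which gathers the initiator caspases CASP8 and CASP10, and CFLAR (c-FLIP), a relative of CASP8 without protease activity, competes for the same place. Sulforaphane is an isothiocyanate best known for activating the transcription factor NRF2.

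A pair of arrays stood at opposite ends of the set before any gene was tested. Untreated replicate 2 had the lowest upper-quartile signal, 9.28, and 24 h replicate 1 the highest, 9.63, with the other 7 arrays between 9.42 and 9.57. Of 9 measured B-cell markers 8 lay above the median signal of all clusters, against 1 of 10 T-cell and NK-cell markers, 0 of 7 myeloid markers and 1 of 8 fibroblast markers. The mean signal of the B-cell markers stayed between 11.23 and 11.40 on every array. That of the T-cell and NK-cell markers was 6.794 to 6.996 at 0 h, 6.71 to 6.81 at 8 h and 6.77 to 6.85 at 24 h. That of the myeloid markers was 6.39 to 6.68, 6.31 to 6.38 and 6.30 to 6.46 at these times, and that of the fibroblast markers 6.27 to 6.38, 6.19 to 6.21 and 6.20 to 6.24. Of these 3 lists 1 gene passed a test against 0 h, the fibroblast marker THY1, which fell by 0.51 ± 0.07 at 8 h (adjusted p = 0.0191). Of the 9 B-cell markers 0 passed at 8 h and 1 passed at 24 h, higher than at 0 h. Of all clusters 0.327% fell at 8 h and 0.831% rose at 24 h. In bulk RNA, fewer cells with a transcript and less transcript per cell cannot be told apart.

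At 8 h the ligand was lower and a decoy receptor higher than in untreated cells. TNFSF10 fell by 0.98 ± 0.16 (SE) on the log2 scale and TNFRSF10D rose by 0.79 ± 0.13, and the other 8 genes did not pass the test (limma, Benjamini-Hochberg adjusted p below 0.05 over all clusters). Of the 10 genes 1 rose and 1 fell, against 0.268% and 0.327% of all clusters. The median change of the 10 was 0.20, against -0.038 for all named genes. Changes were above 0 for 8 genes and below 0 for TNFSF10 and FADD. Without untreated replicate 2 the median was 0.011 and 5 changes were above 0, while without untreated replicate 1 the median was 0.33.

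**Figure D1:**
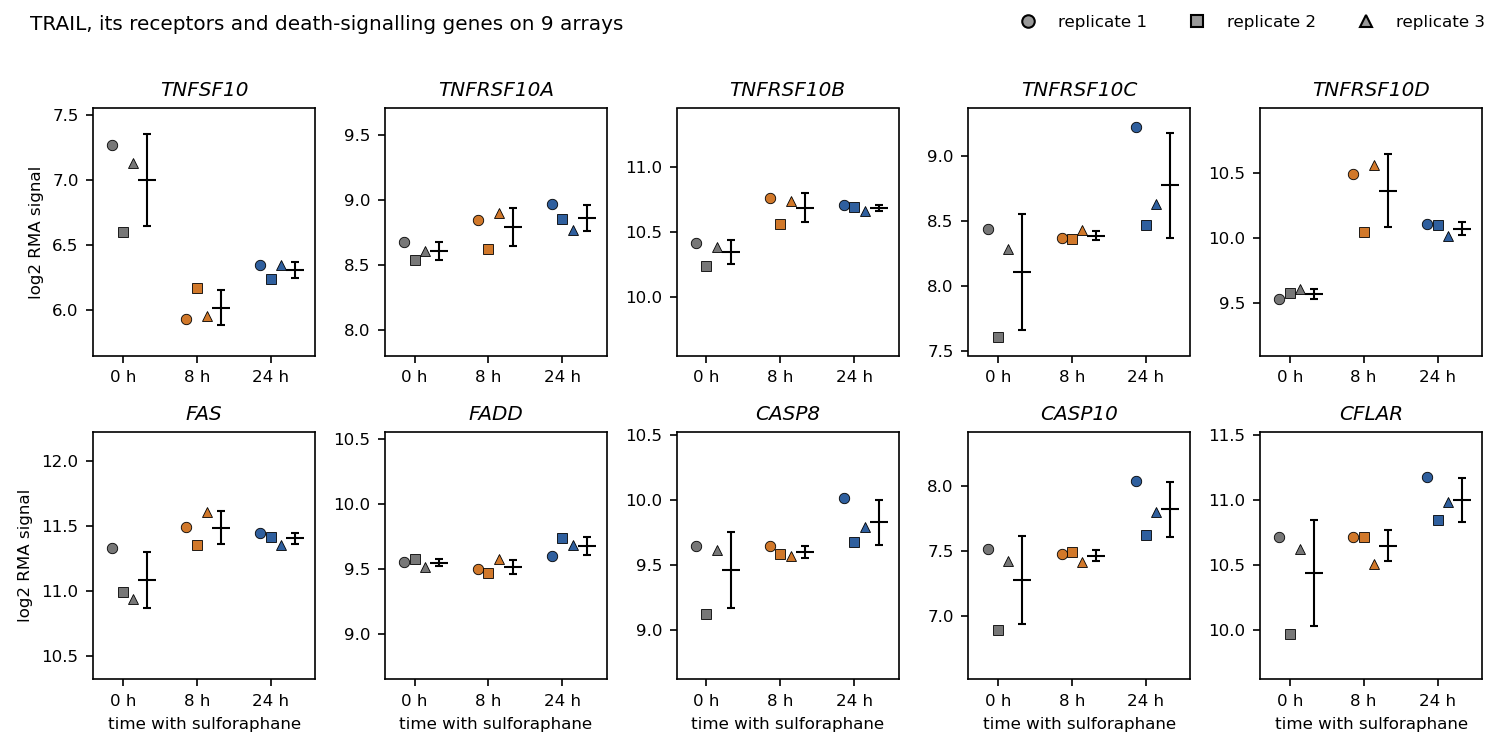
Log2 signal (vertical axes, all spanning the same number of log2 units) of the 10 genes on the 9 arrays at 0 h, 8 h and 24 h with sulforaphane (horizontal axes). Symbols mark the replicate number within a group and bars the mean ± SD of 3 arrays. TNFSF10 lies lower on all treated arrays than on any untreated one, and TNFRSF10D lies higher on all treated arrays. Untreated replicate 2 sits well below its group for TNFSF10, TNFRSF10C, CASP8, CASP10 and CFLAR.

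TNFSF10 (cluster 2705706), the ligand, had log2 signals of 7.27, 6.60 and 7.13 in untreated cells, 5.93, 6.17 and 5.95 at 8 h, and 6.34, 6.24 and 6.34 at 24 h. All 6 treated arrays lay below all 3 untreated arrays, and the 24 h arrays lay above the 8 h arrays. The mean was 6.02 ± 0.13 (SD, n = 3) at 8 h and 6.998 ± 0.353 at 0 h, a 1.97-fold lower measured signal at 8 h with a 95% interval of the log2 change from -1.35 to -0.61 (adjusted p = 0.0486). The cluster was dim, at percentile 21.8 of all clusters by mean, and no detection call was used here, so the fold was not tested against background. At 24 h the mean was 6.31 ± 0.06, a log2 change against 0 h of -0.69 ± 0.16 (adjusted p = 0.0844), so the lower signal at 24 h did not pass the test. The difference between 24 h and 8 h, 0.29 ± 0.16, did not pass either (adjusted p = 0.597). Untreated replicate 2 differed from the mean of the other untreated arrays by -0.60. Without that array the change was -1.18 at 8 h (adjusted p = 0.00785) and -0.89 at 24 h (adjusted p = 0.0118), and both passed. At 24 h that was the 1 fit of 9 to pass, and over the 9 the change ran from -0.89 to -0.55 and the adjusted p up to 0.235.

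The 250 bases before the TNFSF10 start are shown because TRAIL is a known interferon-responsive gene and is the ligand that fell. The sequence is on chromosome 3, minus strand, chr3:172523431-172523680 in GRCh38.p14, from RefSeq. Capitals mark matches to the interferon regulatory factor element AANNGAAA, read on either strand.
TNFSF10: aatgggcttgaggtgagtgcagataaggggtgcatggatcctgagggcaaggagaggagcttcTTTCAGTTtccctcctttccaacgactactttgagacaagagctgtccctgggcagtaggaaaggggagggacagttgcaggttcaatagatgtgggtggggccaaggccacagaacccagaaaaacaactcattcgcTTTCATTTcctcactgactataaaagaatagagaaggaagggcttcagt
The matches, 2 in all and both on the opposite strand, lie 187 to 180 and 49 to 42 bases before the start. A TATA box (TATAAA) lies 31 to 26 bases before it and overlaps neither. The interferon element occurs in 20.3% of the 35116 windows of this length in the RefSeq table, and the TATA box in 10.7%. The antioxidant response element TGACNNNGC, found in 10.9% of windows, the forkhead site GTAAACA, in 2.98%, and the GC box GGGCGG, in 42.6%, had no match in the TNFSF10 window. The interferon element was also matched in windows of other followed genes, none of which passed the test at either time. The TRAIL receptor genes were not scanned and CASP10 had no window, and some scanned genes had several windows. Whether the element has a part in the fall of TNFSF10 was not tested. A match of letters is a description and not a binding site.

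Neither death-domain receptor passed the test at either time. TNFRSF10B (cluster 3127703) had log2 signals of 10.41, 10.24 and 10.38 at 0 h, 10.76, 10.56 and 10.74 at 8 h, and 10.70, 10.69 and 10.66 at 24 h. Its treated arrays lay above all untreated arrays at both times, and the 8 h and 24 h arrays overlapped. The change was 0.34 ± 0.08 at 8 h (95% interval 0.17 to 0.52, adjusted p = 0.0939) and 0.34 ± 0.08 at 24 h (adjusted p = 0.0755), close to the threshold without passing it. TNFRSF10A (cluster 3127775) had 8.67, 8.54 and 8.61 at 0 h, 8.84, 8.62 and 8.90 at 8 h, and 8.97, 8.85 and 8.77 at 24 h. Its 8 h arrays overlapped the untreated ones and its 24 h arrays did not. Its changes were 0.18 ± 0.09 at 8 h (adjusted p = 0.385) and 0.26 ± 0.09 at 24 h (adjusted p = 0.19).

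Of the decoy receptors only TNFRSF10D passed the test, at 8 h. TNFRSF10D (cluster 3127745) had log2 signals of 9.53, 9.57 and 9.61 in untreated cells, 10.49, 10.04 and 10.56 at 8 h, and 10.11, 10.10 and 10.01 at 24 h. No treated array overlapped the untreated arrays, whose values lay within 0.1 of one another, while at 8 h replicate 2 lay well below the other 2. The mean was 10.36 ± 0.28 (SD, n = 3) at 8 h and 9.57 ± 0.04 at 0 h, a 1.73-fold rise with a 95% interval of the log2 change from 0.50 to 1.08 (adjusted p = 0.0427). At 24 h it was 10.07 ± 0.05, a change of 0.50 ± 0.13 against 0 h that did not pass (adjusted p = 0.0991), and 24 h was lower than 8 h by 0.29 ± 0.13, a difference that did not pass either (-0.29, adjusted p = 0.478). Untreated replicate 2 did not stand apart for TNFRSF10D, and the 8 h change without it was 0.79 (adjusted p = 0.0634). Without 8 h replicate 2 the change was 0.95 at 8 h (adjusted p = 0.00628) and 0.50 at 24 h (adjusted p = 0.0195). At 24 h that was the 1 fit of 9 to pass, and the adjusted p reached 0.296 in the others.

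TNFRSF10C had 2 clusters of its own. The brighter, 3089816, had 8.43, 7.60 and 8.28 at 0 h, 8.37, 8.36 and 8.43 at 8 h, and 9.22, 8.46 and 8.63 at 24 h, with changes of 0.28 ± 0.25 at 8 h (adjusted p = 0.6) and 0.66 ± 0.25 at 24 h (adjusted p = 0.204). Without untreated replicate 2 these were 0.027 and 0.41, without 24 h replicate 1 the 24 h change was 0.44, and without both arrays it was 0.19. The other, 3089799, had 7.74, 7.70 and 7.70 at 0 h, the single value 7.70 on all 3 arrays at 8 h, and 7.79, 7.69 and 7.80 at 24 h, a change of 0.047 ± 0.054 at 24 h (adjusted p = 0.612). At 8 h the change of 3089799 was -0.014 ± 0.054 (adjusted p = 0.914). The clusters disagreed in the sign of the 8 h difference, where neither passed, and in the size of the 24 h difference. The 4 receptor genes are neighbours on chromosome 8 in the order TNFRSF10B, TNFRSF10C, TNFRSF10D and TNFRSF10A, and they encode related proteins. How the array's probes tell them apart was not tested.

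**Figure D2:**
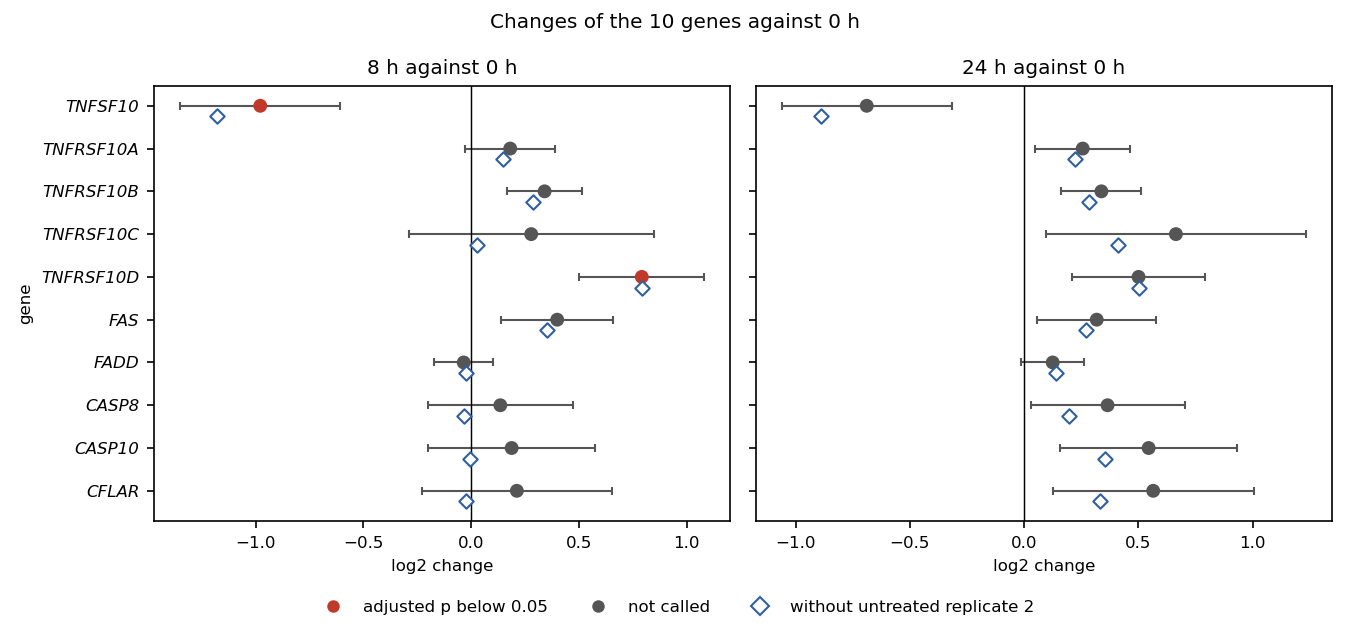
Log2 change of each gene (rows) at 8 h and at 24 h against 0 h, with 95% intervals from the fit of all 9 arrays (circles, red where adjusted p was below 0.05) and the value without untreated replicate 2 (diamonds). TNFSF10 and TNFRSF10D are red at 8 h and no gene is red at 24 h; the diamonds of CASP8, CASP10 and CFLAR lie at -0.033, -0.0041 and -0.022 at 8 h.

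FAS (cluster 3257098), the receptor for Fas ligand, had log2 signals of 11.34, 10.99 and 10.94 at 0 h, 11.50, 11.36 and 11.61 at 8 h, and 11.45, 11.41 and 11.36 at 24 h. Treated arrays lay above untreated ones at both times, but 8 h replicate 2 and 24 h replicate 3 cleared untreated replicate 1 only narrowly. The change was 0.40 ± 0.11 at 8 h (95% interval 0.14 to 0.66, adjusted p = 0.158) and 0.32 ± 0.11 at 24 h (adjusted p = 0.192). Without untreated replicate 1, the highest of its group, the changes were 0.52 (adjusted p = 0.0317) and 0.44 (adjusted p = 0.0438), and both passed. In the other 8 fits with an array left out neither passed, with adjusted p up to 0.399 at 8 h and 0.448 at 24 h. A second cluster, 3257031, annotated to STAMBPL1 and FAS together, had differences of 0.098 ± 0.110 at 8 h and -0.095 ± 0.110 at 24 h, and neither passed (adjusted p = 0.679 and 0.611).

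FADD (cluster 3338424), the adaptor, had the smallest differences of the 10 genes against 0 h at both times. Its log2 signals were 9.56, 9.58 and 9.52 at 0 h, 9.50, 9.47 and 9.58 at 8 h, and 9.60, 9.74 and 9.69 at 24 h. Its arrays overlapped between 8 h and 0 h, where the change was -0.034 ± 0.060 (95% interval -0.17 to 0.10, adjusted p = 0.794). At 24 h the change against 0 h was 0.13 ± 0.06 (adjusted p = 0.276), with no overlap, though under quantile normalization it was -0.0066.

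The initiator caspases and their inhibitor gave one common pattern. CASP8 (cluster 2522728) had 9.65, 9.13 and 9.62 at 0 h, 9.65, 9.58 and 9.56 at 8 h, and 10.02, 9.68 and 9.79 at 24 h. CASP10 (cluster 2522693) had 7.51, 6.89 and 7.42 at 0 h, 7.48, 7.49 and 7.42 at 8 h, and 8.04, 7.62 and 7.80 at 24 h. CFLAR (cluster 2522616) had 10.72, 9.97 and 10.63 at 0 h, 10.72, 10.72 and 10.51 at 8 h, and 11.18, 10.84 and 10.99 at 24 h. In all of these the 8 h arrays overlapped the untreated ones, all 3 arrays at 24 h lay above every untreated and 8 h array, untreated replicate 2 was lowest and 24 h replicate 1 highest. The changes at 24 h were 0.37 ± 0.15 for CASP8 (adjusted p = 0.223), 0.55 ± 0.17 for CASP10 (adjusted p = 0.149) and 0.57 ± 0.19 for CFLAR (adjusted p = 0.178), and none passed.

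The mean signal at 24 h over that at 0 h was 1.48-fold for CFLAR, 1.46-fold for CASP10 and 1.29-fold for CASP8. Without untreated replicate 2 these log2 changes were 0.33 for CFLAR, 0.35 for CASP10 and 0.20 for CASP8, and without both that array and 24 h replicate 1 they were 0.24, 0.24 and 0.10. At 8 h the changes of 0.14 ± 0.15 for CASP8, 0.19 ± 0.17 for CASP10 and 0.21 ± 0.19 for CFLAR turned to -0.033, -0.0041 and -0.022 without untreated replicate 2. CFLAR, CASP10 and CASP8 are consecutive protein-coding genes on chromosome 2. Over the 9 arrays the Pearson correlation was 0.99 between CASP8 and CASP10, 0.98 between CASP8 and CFLAR and 0.99 between CASP10 and CFLAR. TNFRSF10C, on another chromosome, gave 0.98 with CASP8 and 0.97 with CASP10. These points share their arrays, and the arrays at the ends are those with the lowest and highest upper-quartile signal. Without untreated replicate 2 the correlation of TNFRSF10C with CASP8 was 0.96 over 8 arrays. The part of the array-wide signal in these differences was not tested.

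**Figure D3:**
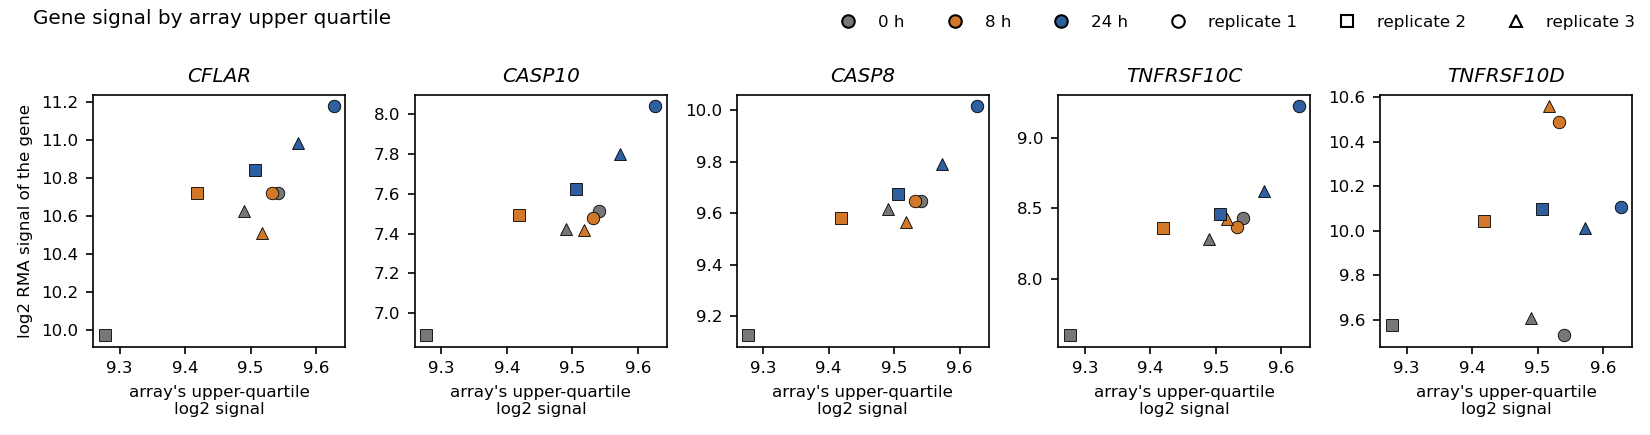
Log2 signal of CFLAR, CASP10, CASP8, TNFRSF10C and TNFRSF10D (vertical axes) against the upper-quartile log2 signal of the same array over all clusters (horizontal axes), with colour for the time and symbol for the replicate. For the first 4 genes untreated replicate 2, at 9.28, is lowest and 24 h replicate 1, at 9.63, highest; for TNFRSF10D the 3 untreated arrays are lowest whatever their upper quartile.

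At 24 h against 0 h, 0 of the 10 genes passed the adjusted test by limma, where 1.62% of all clusters did, 0.831% higher and 0.791% lower. As many as 9 of them had an unadjusted p below 0.05, as 20.4% of clusters had, and adjusted p-values ran from 0.0755 to 0.276. Of the 10, 9 lay higher on every 24 h array than on any untreated array, against 15.6% of clusters, and TNFSF10 lay lower on every one, against 8.75%. The median change of the 10 was 0.35, against -0.0098 for all named genes. Without untreated replicate 2 these were 0.28 and -0.0025. Of the 10 genes 8 lay above the median signal of all clusters, and the clusters were not matched to them in brightness. CASP8, CASP10, CFLAR and TNFRSF10C varied together over the arrays, so the 10 are not separate observations. They were also chosen with earlier results of these data known. At 8 h, 3 genes lay wholly above and 1 wholly below the untreated arrays, against 9.06% and 8.55% of clusters, 17.6% in all. From 8 h to 24 h, 0 of the 10 genes passed by limma, with 2 at an unadjusted p below 0.05, TNFRSF10D and FADD, where 0.327% of clusters passed (0.1% higher and 0.227% lower) and 10.4% had such a p. On every 24 h array 6 genes lay above every 8 h array and 0 lay wholly below, against 15.2% and 6.4% of clusters, 21.6% in all. The comparisons with 0 h share the untreated arrays, so they do not support each other. In the test for any change among the 3 times 0 genes passed, 6 had an unadjusted p below 0.05, and 1.35% of clusters passed, with 18.2% at such an unadjusted p. TNFRSF10D came nearest with an adjusted p of 0.0501, and TNFSF10 followed with 0.0532.

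The calls of the ligand and the decoy receptor at 8 h lay close to the threshold (adjusted p = 0.0486 and 0.0427 by limma). With each of the 9 arrays left out in turn, TNFSF10 kept its direction and passed in 2 of 9 fits, without untreated replicate 1 or 2, with adjusted p from 0.00785 to 0.186. TNFRSF10D also passed in 2 of 9, without untreated replicate 1 or 8 h replicate 2, with adjusted p from 0.00628 to 0.167. Neither gene passed in any fit without a 24 h array, although those arrays do not enter the 8 h difference itself.

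Genes that act with the death receptors were also tested, in lists. Over all clusters 0.268% rose and 0.327% fell at 8 h, and 0.831% rose and 0.791% fell at 24 h. Of 10 measured genes for other death receptors and their ligands, 0 rose and 1 fell at 8 h, and the list's median was -0.074, or -0.018 without untreated replicate 2. The gene that fell was TNFRSF11B, which encodes osteoprotegerin, a soluble receptor that binds RANK ligand and also TRAIL. Its log2 signals were 7.04, 6.90 and 6.85 at 0 h, 6.35, 6.29 and 6.38 at 8 h, and 6.48, 6.51 and 6.61 at 24 h, with no overlap between treated and untreated arrays. It fell by 0.59 ± 0.07 at 8 h (adjusted p = 0.017) and by 0.40 ± 0.07 at 24 h (adjusted p = 0.0419). Its cluster was also dim, at percentile 23.8 by mean. With single arrays left out it passed at 8 h in 4 of 9 fits (those lacking untreated replicate 1, untreated replicate 2, 24 h replicate 1 and 24 h replicate 3) and at 24 h in 1 of 9 (that lacking untreated replicate 1). At 24 h the list had 0 genes that rose and 1 that fell, but 1 and 0 in the fit lacking 8 h replicate 2.

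Of 20 measured adaptors, kinases and ubiquitin regulators of the receptor complexes, 0 rose and 1 fell at 8 h. Among all clusters these shares were 0.268% and 0.327%. The list median was -0.041, which was -0.11 without untreated replicate 2 and -0.021 without untreated replicate 3. MLKL, the pore-forming effector of necroptosis, had 7.99, 7.84 and 7.86 at 0 h, 7.48, 7.20 and 7.44 at 8 h, and 7.60, 7.63 and 7.63 at 24 h. It fell by 0.52 ± 0.08 at 8 h (adjusted p = 0.0459), and its -0.28 ± 0.08 at 24 h did not pass (adjusted p = 0.147). The 8 h call held in 2 of 9 fits, those without untreated replicate 1 or 2. At 24 h 0 of the 20 passed by limma, with 4 at an unadjusted p below 0.05, near the share of 20.4% over all clusters. CYLD, a deubiquitinase that restrains NF-kB signalling, had 0.30 ± 0.09 there (adjusted p = 0.14). It passed in 1 of 9 fits, that without untreated replicate 1 (adjusted p = 0.0472), and its adjusted p reached 0.392 in the others. At 8 h, 1 gene of the list rose and 0 fell when 8 h replicate 2 was left out. TRADD, the adaptor of the TNF receptor, was 0.38 ± 0.07 higher at 24 h than at 8 h, short of the threshold (adjusted p = 0.105). It passed in 1 of 9 fits, that without untreated replicate 2 (adjusted p = 0.049), and its adjusted p reached 0.315 in the others.

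None of 12 measured genes of the caspase cascade and its mitochondrial arm passed by limma at 8 h or 24 h, with 1 and 3 at an unadjusted p below 0.05. Of all clusters 0.595% and 1.62% passed at these times, and 15.1% and 20.4% had such an unadjusted p. BID, the substrate through which CASP8 engages mitochondria, had a change of -0.39 ± 0.09 at 8 h (adjusted p = 0.101). It passed in 1 of 9 fits with an array left out, that without untreated replicate 1 (adjusted p = 0.0302). In the others its adjusted p reached 0.281. DIABLO, which antagonises inhibitors of apoptosis, had 0.27 ± 0.13 at 8 h (adjusted p = 0.362). CASP9, the initiator caspase of the mitochondrial route, had 0.56 ± 0.15 at 24 h (adjusted p = 0.111), and the mitochondrial protease HTRA2 had 0.24 ± 0.10 (adjusted p = 0.237). Without untreated replicate 2 DIABLO had 0.13 and HTRA2 0.13. The list's medians were 0.0039 at 8 h and 0.093 at 24 h, against -0.038 and -0.0098 for all named genes, and -0.048 and 0.028 without untreated replicate 2.

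None of 17 other measured TNF-family genes of B cells passed at 8 h or 24 h by limma, with 4 at an unadjusted p below 0.05 at each time. Such a p was found for 15.1% of all clusters at 8 h and 20.4% at 24 h, where 0.595% and 1.62% passed. TNFRSF17, the plasma-cell receptor BCMA, came nearest, with 0.78 ± 0.14 at 8 h (adjusted p = 0.0618) and 0.57 ± 0.14 at 24 h (adjusted p = 0.101). At each time it passed in 1 of 9 fits with an array left out, that without untreated replicate 1 (adjusted p = 0.0297 and 0.0481). In the others its adjusted p reached 0.211 at 8 h and 0.297 at 24 h. TNFRSF9, a costimulatory receptor, had -0.70 ± 0.18 at 8 h (adjusted p = 0.121). It passed in 1 of 9 fits, that without untreated replicate 2 (adjusted p = 0.0181), and its adjusted p reached 0.322 in the others.

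Among 13 measured transcription factors known to act on TRAIL or death receptor genes, 0 rose and 1 fell at each time. The share of all clusters that fell was 0.327% at 8 h and 0.791% at 24 h. EGR1, an immediate early factor, had 9.78, 9.61 and 9.90 at 0 h, 9.25, 9.31 and 9.18 at 8 h, and 9.38, 9.24 and 9.35 at 24 h. It fell by 0.51 ± 0.08 at 8 h (adjusted p = 0.0478) and by 0.44 ± 0.08 at 24 h (adjusted p = 0.048), and passed in 2 of 9 fits without an array at 8 h, without untreated replicate 1 or 2, and in 1 of 9 at 24 h, without untreated replicate 2.

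Interferon-stimulated genes, a class to which TNFSF10 belongs, had a median of -0.27 at 8 h and -0.14 at 24 h over 19 measured members. The medians of the myeloid markers were -0.28 and -0.15, those of the T-cell and NK-cell markers -0.13 and -0.079, and without untreated replicate 2 the myeloid medians were -0.14 and -0.055, against -0.26 and -0.19 for the interferon-stimulated genes. The part of such shifts in these values was not tested. At 8 h 0 rose and 3 fell, the antiviral synthetases OAS1, OAS2 and OAS3. At 24 h 0 rose and 2 fell, OAS3 and XAF1, a proapoptotic binder of the caspase inhibitor XIAP. Of all clusters 0.268% rose and 0.327% fell at 8 h, and 0.831% rose and 0.791% fell at 24 h. At 8 h OAS1 fell by 0.64 ± 0.08 (adjusted p = 0.0193), OAS2 by 0.63 ± 0.10 (adjusted p = 0.0424) and OAS3 by 0.58 ± 0.07 (adjusted p = 0.0178). OAS3 fell by 0.70 ± 0.07 at 24 h (adjusted p = 0.00874) and XAF1 by 0.73 ± 0.14 (adjusted p = 0.0462). XAF1 had log2 signals of 9.64, 9.66 and 9.36 at 0 h, 9.23, 9.05 and 9.50 at 8 h, and 8.89, 8.91 and 8.66 at 24 h, and it passed in 1 of 9 fits without an array, that without 8 h replicate 2. With single arrays left out, the 3 that fell at 8 h numbered 5 in the fit lacking untreated replicate 2. They numbered 1 in the fits lacking the third array of either treated group, and 0 in those lacking untreated replicate 3, the first 8 h array or the second 24 h array. At 24 h the 2 numbered 4 in the fit lacking 8 h replicate 2, 0 in that lacking untreated replicate 3, and 1 in the remaining 7.

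**Figure D4:**
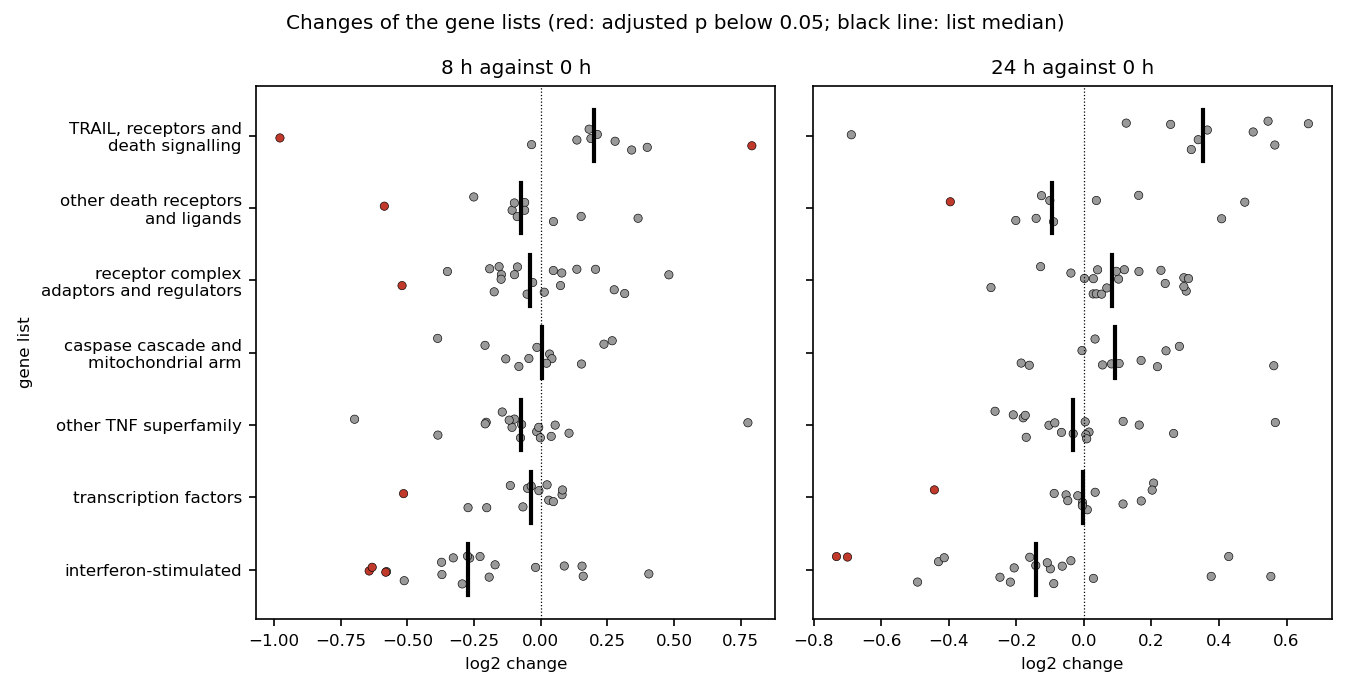
Log2 change at 8 h and at 24 h against 0 h (horizontal axes) of every measured gene in each list (rows; dots spread vertically for legibility only), red where adjusted p was below 0.05, with a black line at the list's median. The median of the TRAIL, receptor and death signalling genes is 0.20 at 8 h and 0.35 at 24 h (0.011 and 0.28 without untreated replicate 2). That of the interferon-stimulated genes is -0.27 and -0.14.

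The named genes whose signals most resembled TNFSF10 over the 9 arrays were DDR2, a collagen receptor (Pearson r = 0.98), HIVEP3, a zinc-finger factor (0.97), KCNMB1, a potassium channel subunit (0.97), MCM4, a subunit of the replicative helicase (0.96), and TRERF1, a transcriptional regulator (0.96). MCM4 had -0.67 ± 0.13 at 8 h (adjusted p = 0.0667), and only KCNMB1 of these 5 passed at 8 h, falling by 0.46 ± 0.08 (adjusted p = 0.0481). Those most like TNFRSF10D were ATN1 (0.98), PIM2, a survival kinase (0.98), EID3 (0.98), SARAF, a regulator of calcium entry (0.98), and LDB1, an adaptor of transcription factors (0.98). EID3 was the 1 of these 5 to pass at 8 h, rising by 0.72 ± 0.09 (adjusted p = 0.0193). With single arrays left out KCNMB1 passed in 2 of 9 fits, those lacking untreated replicate 1 and untreated replicate 2. EID3 passed in 4 of 9, those lacking either of these, 8 h replicate 2 and 24 h replicate 1. The genes were picked from 14232 for their correlation, which the 3 group means share.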

How the data were processed

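RNA from 9 cultures of GM12878 was measured on 9 arrays. Per the labels, the authors summarised core transcript clusters by gene-level RMA with sketch-quantile normalization in Affymetrix Expression Console. What they deposited are log2 signals. Not given in the sources used here are the software versions, annotation release and array build, so no cluster positions are given. Arrays give no counts, and their number limits the precision. No pair of arrays held identical values.

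The values were used as deposited. Clusters were named from the platform's annotation table: 14432 carried 1 symbol, 2408 several and 5171 none. A linear model with 1 mean per group was fitted to all 22011 clusters (limma 3.58.1, R 4.3.3). P-values came from two-sided moderated tests (eBayes), adjusted by Benjamini-Hochberg over all clusters in each comparison, and 95% intervals from the same fit were not adjusted. A change was called at an adjusted p below 0.05. The workflow was tested on simulated data. These had independent noise in each cluster and no shift of whole arrays, so they do not bear on the outlying arrays here. The genes, lists and tests were chosen with earlier results of these data known.

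All 10 genes are named. Of each list, called members were named, up to 6, and if none was called, the 2 of smallest p. For each called gene, the 5 genes with the highest correlation were named. Alternatives were a replicate block, a filter on the dimmest 25% of clusters, quantile and median scaling, trended and robust eBayes, array weights, fits of only the groups compared, a threshold of 0.01, a 1.5-fold minimum, averaged clusters, and leaving out each array. Weights fitted gene by gene and the fit without 2 arrays were added after seeing the data. Sequences came from RefSeq (GRCh38.p14). Windows of CFLAR, CASP8, FAS and FADD were scanned as well as that of TNFSF10. Those of the TRAIL receptor genes on chromosome 8, TNFRSF10D among them, were left out of the scan, and CASP10 had no window. The interferon element had 2 matches in a CFLAR window, 1 in a CASP8 window and 1 in a FAS window. It had none in the other windows of these genes or in that of FADD. The antioxidant response element was matched in windows of CFLAR and FAS.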

Additional observations from a re-analysis of the deposited data

How the results depend on the processing

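The 2 genes called at 8 h stayed 2 under quantile normalization, median centring, trended eBayes, the 1.5-fold minimum and averaged clusters. They became 0 with the replicate block, with only the groups compared and at a threshold of 0.01. They became 1 without the dimmest 25% of clusters, which removes TNFSF10 itself, 1 with robust eBayes (TNFSF10 at adjusted p = 0.0527), 4 with array weights fitted gene by gene, 5 with the planned array weights, 1 without untreated replicate 2 and 24 h replicate 1 together, and 0 to 3 with single arrays left out. The planned weights did not converge, gave untreated replicate 3 a weight of 29.8 and called 9603 of all clusters at 8 h. At 24 h the 0 genes called became 1 with median centring (TNFSF10), 4 and 10 with the gene-by-gene and planned weights, 1 without both arrays, and 0 to 1 with single arrays left out. From 8 h to 24 h, 0 became 2 and 3 with the gene-by-gene and planned weights and stayed 0 in every fit without 1 array. For any change over time, 0 became 1 without the dimmest clusters, 2 with quantile normalization, 2 with median centring, 1 with trended eBayes, 5 and 9 with the gene-by-gene and planned weights, 1 without both arrays, and 0 to 1 with single arrays left out.

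Signs turned in differences that had not passed the test. At 8 h CASP8 was -0.033, CASP10 -0.0041 and CFLAR -0.022 without untreated replicate 2, and the same without both arrays, and with single arrays left out they reached 0.23, 0.31 and 0.35. At 24 h quantile normalization gave FADD -0.0066 and ATN1 -0.013. From 8 h to 24 h TNFRSF10A was -0.020 and -0.025 with the planned and gene-by-gene weights and -0.0079 without 8 h replicate 2, and TNFRSF10B was 0.035, 0.023 and 0.010 without 8 h replicate 1, 8 h replicate 3 and 24 h replicate 3. With single arrays left out TNFRSF10A reached 0.13 and TNFRSF10B -0.066. With the replicate block TNFSF10 had an adjusted p of 0.0828 and TNFRSF10D of 0.0691 at 8 h. Same-numbered arrays deviated from their group means with correlations from -0.14 to 0.39. The highest, 0.39 and 0.38, were between 0 h and 24 h for replicates 1 and 2. The numbers were not taken as pairs because the labels do not say that a number marks a shared batch. Whether it does was not tested. Over 20 settings TNFRSF10D had adjusted p-values from 9.33e-05 to 0.182 at 8 h, and TNFSF10 from 2.05e-05 to 0.192 over 19. These settings include the planned weights, which did not converge. With single arrays left out the lowest adjusted p-values were 0.00628 for TNFRSF10D and 0.00785 for TNFSF10. The cause of these shifts was not tested. TNFSF10 and TNFRSF11B were in the dimmest 25% of clusters.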
